A study of Mus musculus with 6 samples.

Results

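Complement genes were followed in cells sorted from the medulla of the mouse kidney. C3, C4b and Cfb encode components that start and amplify the complement cascade, and Cfi, Cd55, Cd59a and Cd46 encode proteins that hold it back. The members were the rows of the deposited RPKM table with one of these 7 symbols, and all 7 were found among 37583 genes, each with a read count under the same Ensembl identifier (C3 ENSMUSG00000024164, C4b ENSMUSG00000073418, Cfb ENSMUSG00000090231, Cfi ENSMUSG00000058952, Cd55 ENSMUSG00000026399, Cd59a ENSMUSG00000032679, Cd46 ENSMUSG00000016493). RNA had been sequenced from EGFP+ cells that were sorted in 2 rounds from the renal medulla of B1 VATPase EGFP mice aged 12 weeks. EGFP in these transgenic mice marks intercalated cells, which move acid and base across the collecting duct by means of a proton pump whose B1 subunit gives the line its name. There were 3 libraries taken 2 h after sham surgery and 3 taken 2 h after renal ischemia reperfusion injury (IRI), in which blood flow to the kidney is stopped and then restored. Both groups carried the transgene, and each library pooled 4 kidneys of 2 mice. Nothing in the labels states that the libraries stem from separate experiments, and p-values therefore reflect only how far these pooled samples scatter.

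Complement is a chain of plasma and cell-surface proteins that tags cells for removal and can pierce their membranes. The classical pathway runs through C4 and C2, the lectin pathway joins it there, and the alternative pathway runs through factor B; all of them cleave C3, whose fragment C3b binds to nearby surfaces and leads on to the membrane attack complex. Host cells limit this on their surface with CD55, which takes the C3-cleaving enzymes apart, with CD46, a cofactor for the cleavage of C3b by factor I, and with CD59, which blocks the last step of pore formation. In the kidney the liver-derived proteins of the plasma and proteins made locally by tubule cells can both contribute, and the alternative pathway is known for its part in ischemic kidney injury in mice.

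The libraries held between 17421669 and 24245330 reads counted in genes, and the first principal component, with 71.1% of the variance, separated the groups. Epididymis is given as the tissue in the labels, and CX3CR1 appears under genotype, whereas the series design describes renal medulla. Intercalated cell markers (8 genes, led by Car2, Atp6v1g3 and Atp6v0d2) summed to between 19770 and 25384 CPM (read counts scaled to library size) in sham and between 21099 and 25341 CPM after IRI. The 10 epididymis markers summed to between 4.18 and 13.3 CPM over all libraries. Defb2 and Cst8 led that sum, with 871 and 175 reads in all, and Lcn5, Lcn8 and Cst11 had 0 reads in each library. The sorted cells were not intercalated cells alone. The 6 markers of principal cells were led by the water channel Aqp2. They summed to between 10836 and 11601 CPM in sham and between 5304 and 10495 CPM after IRI. The 4 markers of the thick ascending limb, another tubule segment, were led by Umod and summed to between 1119 and 1866 CPM in sham. After IRI that sum was between 742 and 1287 CPM.

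The 7 genes spanned a wide range of levels before any comparison of the groups: Cd59a was abundant, Cd55 and Cfi were moderate, Cd46 was scarce, and the components C3, C4b and Cfb were almost absent. On the RPKM scale, in which reads are divided by gene length so that genes can be compared, Cd59a stood highest in each of the 6 libraries. Its level was 144 ± 15.4 RPKM in sham and 134 ± 10.4 RPKM after IRI (SD, n = 3 per group), which placed it 509th and 626th of 37583 genes. Cd55 averaged 4.73 ± 0.355 RPKM in sham and Cfi 4.57 ± 1.89 RPKM, and in sham these neighbours did not differ beyond their spread, with a Cd55 level 0.704 to 1.38 times that of Cfi. After IRI the level of Cd55 was 3.01 to 7.72 times that of Cfi. Cd46 followed at 0.178 ± 0.107 RPKM in sham and 0.281 ± 0.0945 RPKM after IRI. C3, C4b and Cfb came last. After IRI they overlapped each other, whereas in sham each Cfb value (0.0182 to 0.0396 RPKM) lay above each C4b value (0 to 0.0152 RPKM), a gap of a few reads. Their summed level was 0.0466 ± 0.0261 RPKM in sham and 0.0373 ± 0.0199 RPKM after IRI. In bulk samples such as these, fewer cells of a type and less RNA per cell cannot be told apart.

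**Figure D1:**
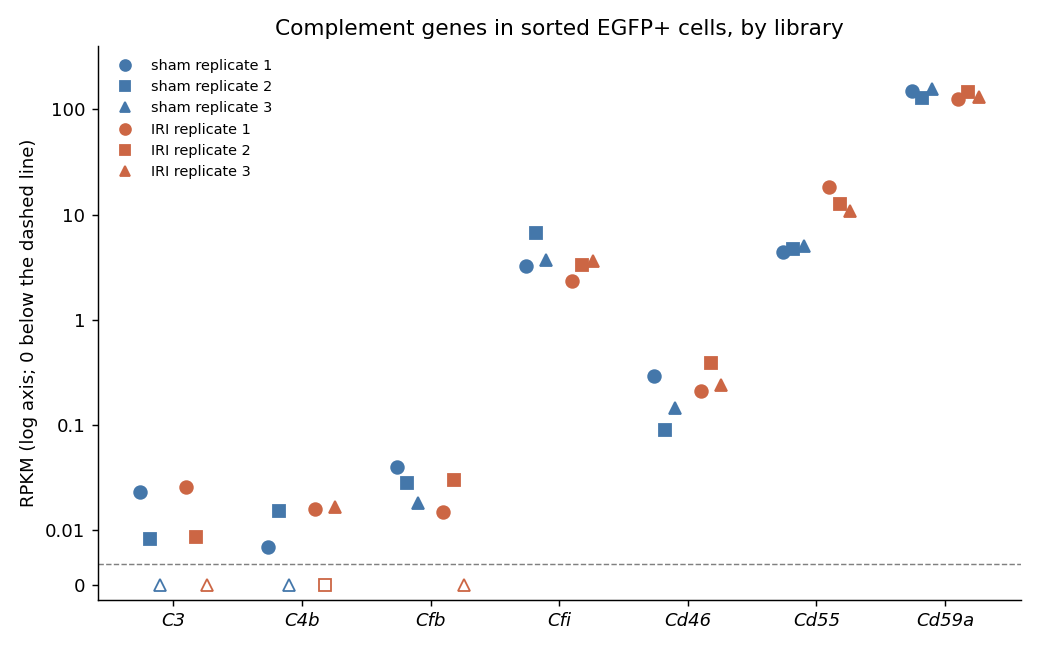
RPKM (log axis, with 0 drawn below the dashed line) of the 7 complement genes in each of 3 sham and 3 IRI libraries, one point per library. Cd59a lies above 100 RPKM in every library, Cd55 rises from between 4.37 and 5.08 RPKM to between 10.9 and 18.1 RPKM, and C3, C4b and Cfb stay under 0.04 RPKM.

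C3 encodes the protein on which all the pathways converge. It had 3, 1 and 0 reads in sham replicates 1, 2 and 3, and the same 3, 1 and 0 reads in IRI replicates 1, 2 and 3. C4b, which encodes the C4 protein of the classical and lectin pathways, had 1, 2 and 0 reads in sham and 2, 0 and 2 reads after IRI. Cfb, which encodes factor B, had 3, 2 and 1 reads in sham and 1, 2 and 0 reads after IRI. No library held more than 3 reads of any of these genes, and the groups overlapped for each of them. A count of 0 allows up to 3 reads, or 0.118 to 0.163 CPM in these libraries. All of them were below the filter on low counts. From the summed reads, 4 against 4 for C3, the ratio of IRI to sham was 1.04, with an exact 95% interval of 0.194 to 5.60 that covers counting error only. The ratio was 1.39 (0.235 to 9.49) for C4b, from 4 reads after IRI and 3 in sham. For Cfb it was 0.521 (0.0844 to 2.44), from 3 reads after IRI and 6 in sham. A difference between the groups was thus not detectable at this depth for the components, and the intervals admit both a rise and a fall.

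For 2 of these genes the count may miss reads. In the GENCODE M21 annotation, which is of another build than the one the deposited files name, 2246 of the 2825 exonic bases of Cfb (79.5%) also belong to exons of Gm20547, a gene model on the same strand that reads through from C2. Reads that fall in both are ambiguous for a read counter; Gm20547 itself, which is in the deposited list, had 0 reads in all 6 libraries, and ambiguous reads made up 1.58% to 1.73% of the reads of a library. The low value of Cfb is therefore uncertain. C4b has a near-identical neighbour, C4a: of the 50-base words in its transcripts, 34.6% occur in C4a too. C4a, named here after its values were seen, was itself below the filter, with 6, 5 and 4 reads in sham and 13, 10 and 15 reads after IRI. Every IRI library thus lay above every sham library for C4a, as for 29.2% of the genes tested, but the difference was not tested. C3 shared no exonic base with another counted gene and no 50-base word with another transcript.

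Of the 7 genes, 4 passed the filter on low counts and were tested with edgeR's quasi-likelihood test over all 13881 genes that passed it (Benjamini-Hochberg adjustment, call at an adjusted p under 0.05). Cd55 was called higher, 0 were called lower and 3 had no call. Over all genes tested 45.5% were called, so 1 of 4 is not more than the background. DESeq2 and limma-voom likewise called 1 of the members higher and 0 lower, and 1 had an unadjusted p under 0.05.

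Cd55, which encodes decay-accelerating factor, was higher in the cells sorted after IRI. Its read counts were 557, 561 and 470 after sham surgery and 2049, 1422 and 1164 after IRI. Scaled to library size these were 21.9, 23.7 and 25.6 CPM in sham and 92.0, 65.2 and 56.2 CPM after IRI. Every IRI library lay above every sham library, IRI replicate 1 was the highest, and the spread was wider after IRI (SD 18.6 CPM) than in sham (SD 1.84 CPM). The rise was 3.00-fold (95% interval 2.26 to 3.99), a log2 fold change of 1.59 ± 0.18 (SE) with an adjusted p of 0.000222 by edgeR. The groups did not overlap in 29.2% of all genes tested in the direction of Cd55. A called rise at least as large as that of Cd55 was found in 6.58% of them. Without IRI replicate 1 the log2 fold change was 1.36 (adjusted p = 0.000203). Of the 50-base words in Cd55 transcripts 9.12% occur in other genes, chiefly in its neighbour listed here as Daf2, which had between 0 and 8 reads per library.

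Cd55 is also carried by leukocytes and endothelial cells, and some of their markers moved with it. Of 12 macrophage and dendritic cell markers, 9 were tested, 5 were called higher (Cd68, Cd14, Lyz2, Ptprc and Cd163) and 0 lower. Csf1r, Tyrobp, Fcer1g and Cd74 were tested and had no call. Over all genes tested 24.2% were called higher and 21.2% lower. The 12 markers together summed to between 64.2 and 264 CPM in sham and between 205 and 308 CPM after IRI, ranges that overlap. Cd74, the most abundant of the 12, led that sum. For Cd68 (41.9-fold) and Cd14 (4.14-fold) every IRI library lay above every sham library. DESeq2 and limma-voom also called 0 of the 12 lower. Of the 10 neutrophil markers 0 passed the filter, and together they summed to at most 0.118 CPM in sham and at most 4.71 CPM after IRI. Of 9 endothelial markers, Flt1 alone was called higher, and the list summed to between 5.07 and 7.99 CPM in sham and between 6.60 and 10.8 CPM after IRI. The part of any of these cell types in the rise of Cd55 was not tested.

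Cd59a, the most abundant of the 7, encodes the widely expressed mouse form of CD59. It stood at 277, 238 and 296 CPM in sham and at 237, 281 and 256 CPM after IRI. The groups overlapped, with no library apart from the others. The log2 fold change was -0.07 ± 0.12, with a 95% interval of -0.33 to 0.20 and an adjusted p of 0.671, so the interval of the fold runs from 0.796 to 1.15. With library size alone in place of the TMM scaling, which moves the median of all tested genes by -0.20, Cd59a stood at -0.27 (adjusted p = 0.0633). Only 3.87% of its 50-base words are shared, with its duplicate Cd59b.

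Cd59a and Cd55 therefore changed their proportion. The Cd59a level was 33.9, 26.9 and 31.0 times that of Cd55 in sham replicates 1, 2 and 3 on the RPKM scale, and 6.91, 11.5 and 12.2 times after IRI. Cd55 made up 3.09% ± 0.307 of the summed RPKM of the 7 genes in sham and 9.20% ± 2.79 after IRI, and Cd59a 93.7% ± 1.79 and 88.6% ± 2.39. The sum itself was 154 ± 13.8 RPKM in sham and 152 ± 8.98 RPKM after IRI, and the groups overlapped. These shares describe transcripts and not proteins on the cell surface.

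Cfi encodes factor I, the secreted protease that cuts C3b and C4b. It had 170, 324 and 139 reads in sham and 108, 152 and 157 reads after IRI, or 6.68, 13.7 and 7.56 CPM against 4.85, 6.97 and 7.58 CPM. Sham replicate 2 stood well above the other sham libraries, which lay among the IRI libraries. The log2 fold change was -0.53 ± 0.30 (95% interval -1.21 to 0.16, adjusted p = 0.184). Without sham replicate 2 it was -0.14 (adjusted p = 0.697).

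Cd46 encodes membrane cofactor protein, which in the mouse, unlike in most mammals, is made mainly in the testis. It had 25, 7 and 9 reads in sham and 16, 29 and 17 reads after IRI, under 1.4 CPM in every library. Sham replicate 1 lay within the IRI range. The log2 fold change was 0.68 ± 0.50 (95% interval -0.45 to 1.81, adjusted p = 0.298), an interval too wide to separate a fall from a more than 3-fold rise. Without sham replicate 1 it was 1.27 (adjusted p = 0.0901). Male germ cell markers (8 genes, 4 of them at 0 reads in every library) summed to at most 0.272 CPM in sham and at most 0.225 CPM after IRI.

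The promoter sequence was read for the gene that rose, the abundant gene that was not called and the component at the centre of the cascade. Windows of 250 bases before the RefSeq start were taken from the GRCm38.p6 assembly, for which 4 of the 7 genes had an entry (C3, Cd55, Cd59a and Cd46), and 3 are printed, 5′ to 3′ on the strand of the gene. The windows were chr1:130462745-130462994 on the minus strand for Cd55, chr2:104095551-104095800 on the plus strand for Cd59a and chr17:57228137-57228386 on the minus strand for C3. Capitals mark matches to any of 9 short motifs, which were searched on both strands.
Cd55: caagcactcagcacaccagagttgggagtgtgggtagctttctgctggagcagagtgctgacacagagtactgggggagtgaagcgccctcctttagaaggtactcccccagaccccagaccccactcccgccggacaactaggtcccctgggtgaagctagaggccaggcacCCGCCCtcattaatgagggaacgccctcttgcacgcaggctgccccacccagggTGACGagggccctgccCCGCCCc
Cd59a: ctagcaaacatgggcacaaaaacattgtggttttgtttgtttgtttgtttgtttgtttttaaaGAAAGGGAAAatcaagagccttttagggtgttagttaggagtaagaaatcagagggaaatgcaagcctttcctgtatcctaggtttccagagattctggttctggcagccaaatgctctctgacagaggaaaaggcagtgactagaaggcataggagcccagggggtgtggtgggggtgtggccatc
C3: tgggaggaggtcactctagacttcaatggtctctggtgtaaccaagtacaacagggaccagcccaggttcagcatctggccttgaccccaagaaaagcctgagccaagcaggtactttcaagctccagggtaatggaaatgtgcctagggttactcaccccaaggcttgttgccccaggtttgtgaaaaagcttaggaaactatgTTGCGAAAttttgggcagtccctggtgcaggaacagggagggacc

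The Cd55 window held 2 copies of the Sp1-type GC box GGGCGG on the opposite strand, at 77 to 72 and at 7 to 2 bases before the start, a motif present in 32.7% of 32851 promoter windows of that length. It also held the cyclic AMP response half-site TGACG at 23 to 19 bases before the start, found in 17.8% of windows, and its GC content was 64.0% against a median of 52.4%. The C3 window held 1 match to the C/EBP motif TTGCNNAA, at 45 to 38 bases before the start, which 9.56% of windows hold. The Cd59a window held 1 match to the interferon response motif (TTTC, any 2 bases, TTTC) on the opposite strand, at 187 to 178 bases before the start, which 2.98% hold. The window of Cd46 held none of the 9. The other motifs were the NF-kB consensus (5.00% of windows), the full cyclic AMP response element TGACGTCA (1.55%), which contains the half-site, the hypoxia response core ACGTG (16.6%), the AP-1 motif TGANTCA (6.75%) and the TATA box TATAAA (12.4%), with no match in these windows. A match describes letters and is not a binding site.

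The transcription factors and cytokine receptors that are known to act on complement genes in other settings were mostly higher. Of 19 listed, 18 were tested, 15 were called higher and 1 (Cebpa) lower, with a median log2 fold change of 1.60 against 0.00038 over all genes tested. The list was chosen with earlier results of these data known, so these counts are not independent of that choice. Over all genes 24.2% were called higher and 21.2% lower. The C/EBP factors Cebpb and Cebpd, known activators of C3 transcription in inflammation, stood at 27.3, 26.7 and 32.6 CPM and at 56.4, 76.0 and 67.7 CPM in sham. After IRI they stood at 276, 283 and 259 CPM and at 1090, 1308 and 1241 CPM. Their log2 fold changes were 3.24 ± 0.11 and 4.18 ± 0.15 (adjusted p = 2.84e-06 for each). In the same IRI libraries C3, whose window above holds the C/EBP letters, had at most 3 reads, as in sham. Whether the rise of these factors bears on C3 was not tested. The TNF receptor Tnfrsf1a rose 3.20-fold (adjusted p = 1.86e-05). The oncostatin M receptor Osmr went from at most 0.118 CPM in sham to 17.1, 15.2 and 9.03 CPM after IRI (adjusted p = 1.79e-05). Hif1a, which encodes the oxygen-regulated subunit of a hypoxia-inducible factor, had no call, with a log2 fold change of 0.04 ± 0.13 (adjusted p = 0.816).

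The rest of the pathway was mostly scarce, among components and regulators alike. Of 52 other complement genes, 16 had 0 reads in all 6 libraries and 33, these included, had fewer than 10 reads in each library. All 9 lectin pathway genes were among the 33, as were 6 of 7 terminal pathway genes, 3 of 9 classical pathway genes, 6 of 10 secreted regulators and 4 of 7 membrane regulators, and C6, C7, C9 and Hc, which encodes C5, had no read at all. Altogether 15 of the 52 were tested, of which 3 were called higher and 2 lower, 33.3% of those tested against 45.5% over all genes. Their median log2 fold change was 0.12. The split moved with the scaling, to 2 higher and 4 lower with library size alone and with upper-quartile scaling. Of 5 tested classical pathway genes 0 were called by edgeR, by DESeq2 or by limma-voom, and 0 had an unadjusted p under 0.05.

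**Figure D2:**
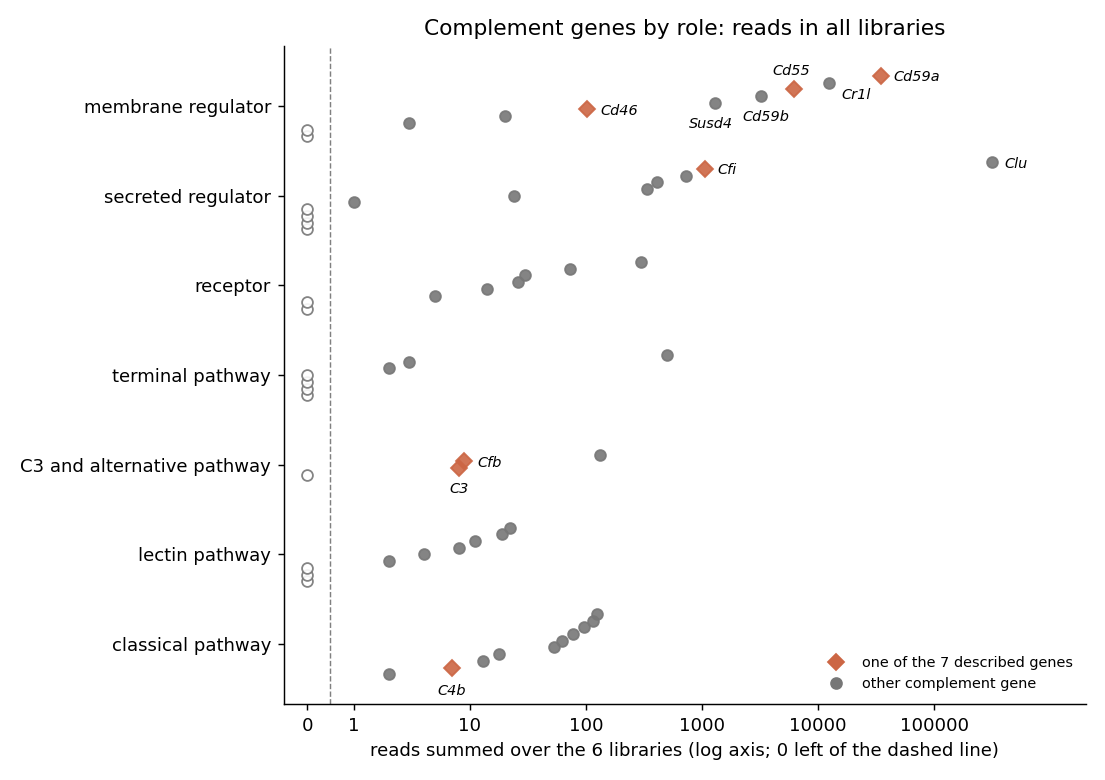
Reads summed over the 6 libraries (log axis, with 0 left of the dashed line) for the 7 described genes (diamonds) and 52 other complement genes (circles), in rows by role. C3, C4b and Cfb have 8, 7 and 9 reads in all, while Cd59a, Cd55 and the secreted regulator Clu lie far to the right.

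Among the secreted regulators, clusterin (Clu), which binds the forming attack complex, was the most abundant complement transcript. It stood at 1843, 1172 and 1678 CPM in sham and at 2775, 3235 and 3690 CPM after IRI, and the groups did not overlap. The rise was 2.07-fold (log2 1.05 ± 0.19, adjusted p = 0.00197). Clu supplied 65.3% ± 4.29 of the summed RPKM of all 59 complement genes in sham and 79.6% ± 1.96 after IRI. C4bp, the C4b-binding protein, was scarce and was called higher (2.05 ± 0.615 to 4.30 ± 0.906 CPM, log2 1.08 ± 0.30, adjusted p = 0.0176). Serping1, the C1 inhibitor, averaged 1.60 ± 0.592 CPM in sham and 3.58 ± 1.42 CPM after IRI. Its groups overlapped, and it was called higher (log2 1.17 ± 0.39, adjusted p = 0.0366). The call of C4bp was lost without sham replicate 2 or IRI replicate 2 (adjusted p up to 0.0682). Serping1 lost its call with library size alone, with upper-quartile scaling, and when sham replicate 1, sham replicate 2, IRI replicate 2 or IRI replicate 3 was left out (highest adjusted p = 0.124).

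Of the other membrane regulators, Cr1l encodes Crry, the rodent surface protein that does the work of both CD55 and CD46. It stood at 89.7, 90.0 and 86.4 CPM in sham and at 95.1, 104 and 98.6 CPM after IRI. All IRI libraries lay above all sham libraries, but the difference was small and was not called (log2 0.16 ± 0.09, 95% interval -0.03 to 0.36, adjusted p = 0.160), and with library size alone it was -0.04. The ratio of Cd55 to Cr1l on the RPKM scale was 0.0938 ± 0.00919 in sham and 0.253 ± 0.0754 after IRI. On that scale Cr1l stood above Cd55 in every library, but the order rests on the deposited gene lengths. In the M21 annotation Cr1l has 10349 exonic bases and Cd55 4853. Before division by length, Cr1l stood at 95.1 CPM and Cd55 at 92.0 CPM in IRI replicate 1. With the deposited lengths, the levels of Cd55, Cd59a, Cd46 and Cr1l together were 200 ± 14.4 RPKM in sham and 204 ± 10.9 RPKM after IRI. Cd59b, the duplicate of Cd59a, averaged 27.8 ± 5.31 CPM in sham and 20.7 ± 3.19 CPM after IRI (log2 -0.42 ± 0.17, adjusted p = 0.0757). It was called lower with library size alone, upper-quartile scaling, no filter or a replicate block, and without sham replicate 1 or IRI replicate 3 (adjusted p down to 0.0145). Of its 50-base words 20.1% occur in other genes. Susd4, a membrane inhibitor of the C3-cleaving enzymes, was called lower (13.3 ± 4.33 to 6.07 ± 2.62 CPM, log2 -1.13 ± 0.36, adjusted p = 0.0336). Leaving out sham replicate 1, sham replicate 3, IRI replicate 1 or IRI replicate 2, or testing without the filter, ended that call (highest adjusted p = 0.102). C8g, the one terminal pathway gene that passed the filter, encodes the gamma chain of C8 and was called lower, from 4.81 ± 0.401 to 2.63 ± 0.190 CPM (log2 -0.87 ± 0.21, adjusted p = 0.00921).

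**Figure D3:**
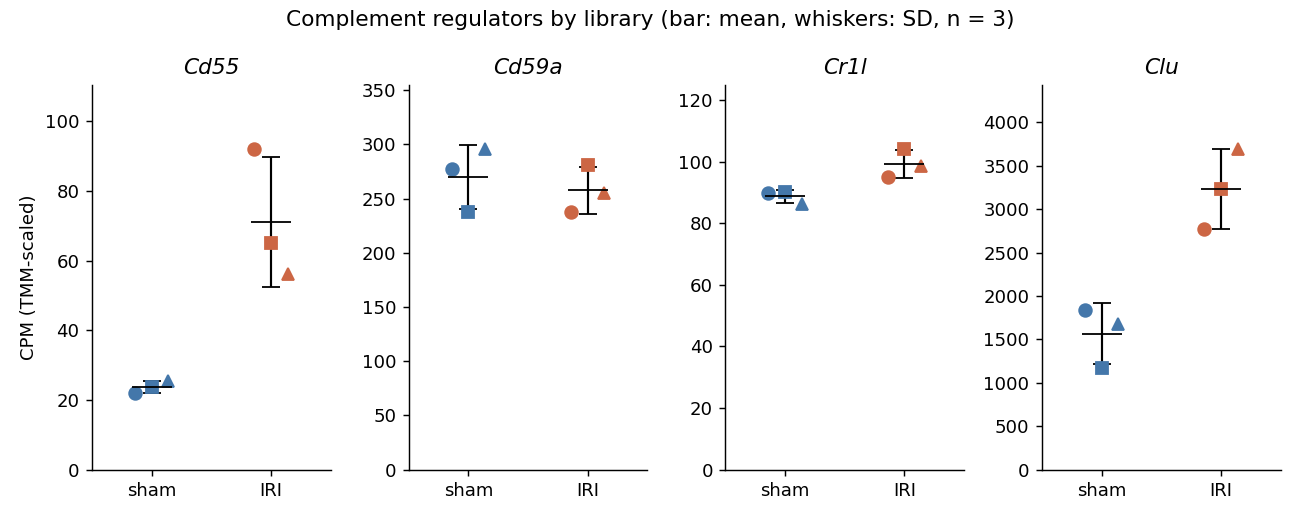
CPM (linear axes from 0, TMM-scaled) of Cd55, Cd59a, Cr1l and Clu in each sham and IRI library, with the mean as a bar and the SD as whiskers (n = 3 per group). Cd55 and Clu separate the groups, Cd59a overlaps between them, and Cr1l differs by less than 20 CPM between any pair of libraries.

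**Figure D4:**
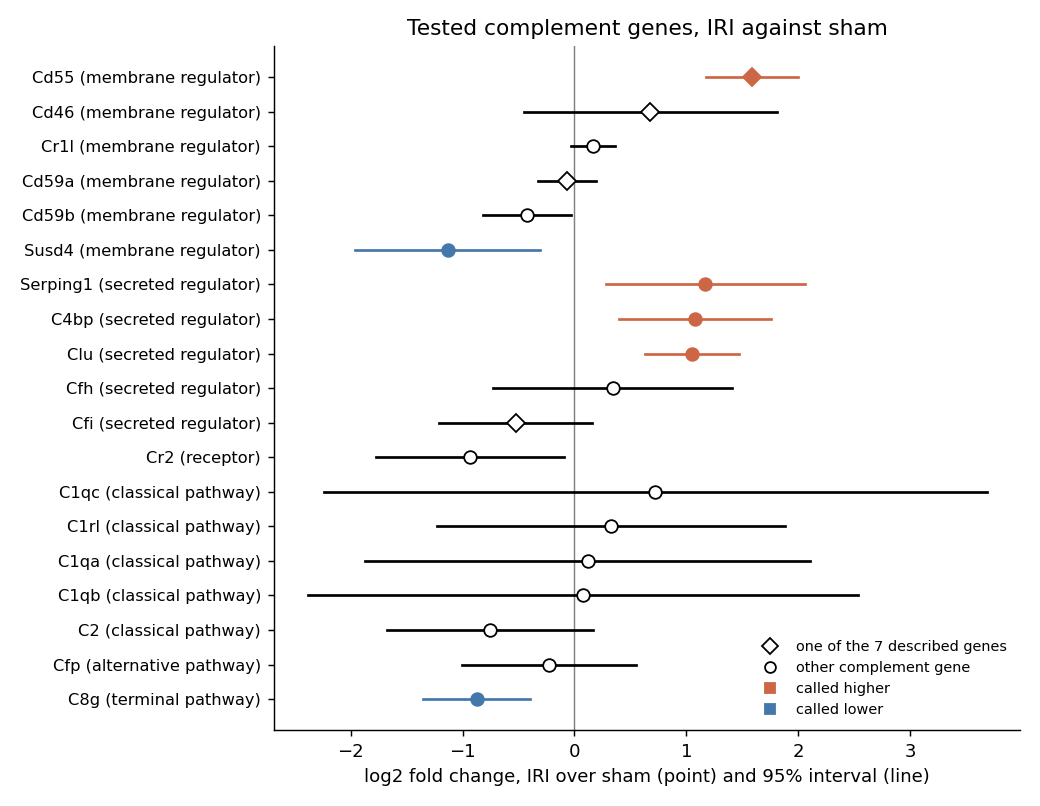
Log2 fold change of IRI over sham with its 95% interval for the 19 complement genes tested, ordered by role, with diamonds for the described genes and colour for genes called. Cd55 has the largest log2 fold change of the 19 (1.59), and Cd46, Cd59a and Cfi have intervals that include 0.

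CD55 and CD59 are held in the membrane by a glycosylphosphatidylinositol (GPI) anchor, which a chain of enzymes builds in the endoplasmic reticulum. All 28 genes listed for its synthesis, attachment, remodelling and release were tested, and 1 (Pigm) was called higher and 8 lower, 32.1% of them against 45.5% over all genes. Over all genes 24.2% were called higher and 21.2% lower. The calls of Pigm and Pgap1 were each lost in 7 of the 14 alternatives, that of Pigq in 5 and that of Pigb in 1. The median log2 fold change of the 28 genes was -0.25. With library size alone 0 were called higher and 17 lower, and with upper-quartile scaling 0 and 16. Over all genes these settings also called more genes lower, 4337 and 3789 against 2948 with the TMM scaling. Pigv, a mannosyltransferase of the pathway, fell from 35.1 ± 5.07 to 15.1 ± 2.05 CPM (log2 -1.21 ± 0.16, adjusted p = 0.00037). Pgap2, which acts in remodelling the lipid of the anchor, fell from 63.1 ± 1.13 to 37.7 ± 3.43 CPM (log2 -0.74 ± 0.10, adjusted p = 0.000554). Pigy, a subunit of the enzyme that starts the anchor, fell from 206 ± 21.3 to 129 ± 12.4 CPM (log2 -0.68 ± 0.12, adjusted p = 0.00155).

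Over the 6 libraries, the genes whose log2 CPM ran most like that of Cd55 were D17H6S56E-5, Patl1 and Asb6, with Pearson's r of 0.996, 0.996 and 0.995 over 8161 genes compared. These values are a description, since the libraries form separate groups: 546 of the 8161 genes had an r of at least 0.95. D17H6S56E-5 stood at 60.0, 66.3 and 61.2 CPM in sham and at 772, 409 and 285 CPM after IRI.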

How the data were processed

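Sorted EGFP+ cells were profiled by RNA-seq in 3 sham and 3 IRI libraries, grouped by their titles. The SMARTer kit used for amplification, per the labels' protocols, keeps no strand information. The authors deposited 1 read count per gene and library, taken without regard to strand per the file names. The submitters' processing notes name STAR, HTSeq, edgeR and mm9; their versions and the gene annotation used were not given in the sources. The deposited RPKM values equalled the count divided by the deposited gene length and an effective library size, which was 0.917 to 1.09 of the gene total, so they are not independent of the counts. Of the reads recorded, 49.1% to 50.7% were counted in genes and 39.9% to 42.4% lacked a unique alignment; 5 entries without a gene name stayed out of library sizes and tests.

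The test was edgeR 4.0.16 (R 4.3.3) on the counts as deposited: filterByExpr, TMM scaling, robust quasi-likelihood fit on all 6 libraries with group as its only term, and Benjamini-Hochberg adjustment over 13881 genes. CPM used TMM-scaled library sizes, and log2 values are fitted fold changes of IRI over sham. Standard errors came from the F statistic and 95% intervals from the t distribution with the fit's degrees of freedom. Biological variation was 19.0%. Steps were tested on simulated counts. No pair of libraries within a group was taken as a copy, since chi-square over its degrees of freedom was 18.3 to 50.7.

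The members and lists were chosen with earlier results of these data known. Named besides the 7 members were called genes of the other complement list and those with a mean of at least 10 CPM, the 4 called factors and receptors with the smallest p and the 2 most abundant without a call, the 3 called anchor genes with the smallest p, up to 3 markers per list by level, and the 3 genes most like each called member. A gene that this rule names is not reported here. Other gene names behind small counts were chosen after their values were seen. Alternatives were scaling, filter, tool (DESeq2 1.42.0, limma-voom 3.58.1), a replicate block and leaving out each library. List symbols were matched to the deposited names, and promoters to RefSeq by symbol.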

Additional observations from a re-analysis of the deposited data

How the results depend on the processing

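Over the 14 alternatives Cd55 kept its call, with log2 fold changes from 1.36 to 1.73 and adjusted p from 1.68e-14 to 0.00261. Cd59a (-0.27 to -0.01), Cfi (-0.75 to -0.14) and Cd46 (0.35 to 1.27, 13 alternatives, since it is below the stricter filter of 1 CPM in 3 libraries) kept their sign and had no call in any of them. Without the filter C3, C4b and Cfb had log2 fold changes of 0.06 ± 1.37, 0.42 ± 1.36 and -0.88 ± 1.23, with no call (adjusted p = 1.00, 0.855 and 0.634). The count of called anchor genes was 17 with library size alone and 16 with upper-quartile scaling, against 9. The total called in each other list and over all genes stayed within 1.5 times of that reported, but the split of the other complement genes, 3 higher and 2 lower, did not: it was 2 and 4 with library size alone and upper-quartile scaling, 3 and 4 with the replicate block, 5 and 2 without the filter, 3 and 3 by limma-voom, and between 2 and 4 higher and 1 and 3 lower with a library left out. Of all called genes 3364 were higher and 2948 lower, against 2400 and 4337 with library size alone and 2748 and 3789 with upper-quartile scaling. With the replicate block, Cd55 stood at 1.56 (adjusted p = 0.000975) and 6463 genes were called against 6312. Deviations of same-numbered libraries correlated at 0.182, 0.0952 and 0.178, and each library correlated best with its own number, a hint from the data, since the labels give the number no meaning. Depth limits C3, C4b, Cfb and Cd46, and 3 pooled samples per group limit the rest.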
